A study of Homo sapiens with 6 samples.

Results

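The matricellular and fibronectin matrix genes were taken as the 8 genes FN1, SPARC, POSTN, TNC, THBS1, THBS2, TGFBI and FBN1, which encode secreted glycoproteins of the extracellular matrix. They were picked by name, and all 8 were among the 19198 genes listed in the RNA-Seq table. MCF10A, an established line of non-tumorigenic human mammary epithelial cells, was sequenced in 6 samples. The 3 control samples were grown in DMEM:F12 with 5% horse serum, insulin at 10 µg/ml, EGF at 20 ng/ml, cholera toxin at 100 ng/ml and hydrocortisone at 0.5 µg/ml. The 3 depleted samples were kept in the same serum without these additions, so the effects of the 4 agents cannot be told apart. The sources used here give no time in culture or cell density matched between the groups. These cannot be told apart from the removal either. Penicillin, streptomycin and glutamine were present in both media per the labels, and the time that the RNA samples spent without growth factors is not given in the sources used here. The line is 1 cell line, and the labels do not say whether replicates were separate cultures. The limma p-values set each group difference against the spread between these samples, moderated over all genes, and may not extend to other cultures.

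Fibronectin, encoded by FN1, and fibrillin-1, encoded by FBN1, assemble into fibres that other matrix proteins bind. Periostin (POSTN), tenascin-C (TNC), SPARC and the thrombospondins (THBS1 and THBS2) are called matricellular, since they act mainly on how cells attach to and signal from the matrix rather than as its structure. TGFBI encodes a secreted relative of periostin, with which it shares fasciclin domains. In the breast these proteins are largely made by stromal and myoepithelial cells, and FN1 is among the genes commonly used to mark an epithelial to mesenchymal transition, in which epithelial cells lose their junctions and take on a spindle shape.

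Between 7472418 and 28672630 reads were counted on genes per sample. Depleted replicate 1 differed from the other depleted samples in several epithelial genes, in both directions. CDH1, which encodes E-cadherin, had 610 normalized counts in that sample against 13234 and 13118 in depleted replicates 2 and 3, and KRT5 had 562 against 10908 and 14996. MUC1 was the other way, at 1032 against 323 and 87.2, as was KRT14, at 980 against 193 and 306, while KRT18 was within their range at 8660. The labels describe the cells as luminal ductal, and KRT8 was at 2442 to 8635 normalized counts in the controls, but the basal genes KRT5, at 12739 or more, and KRT17, at 5882 or more, were high in the controls as well. Values with depleted replicate 1 left out are therefore given for each matrix gene whose level in it departed most from the other depleted samples.

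The stretches of DNA just before 4 of the genes are shown first, because POSTN and TGFBI encode related proteins yet lie behind sequences of very different base composition, and TNC and THBS1 give a called and an uncalled gene beside them. RefSeq windows of 250 bases before the transcription start (GRCh38.p14) were found for all 8 genes. Any part that a Gencode v44 exon covers was left out of the printed stretches. This removed 76 bases for POSTN, 50 for TNC and 0 for THBS1 and TGFBI. Of the windows not printed, exons covered all 250 bases for FN1 and SPARC, 204 for THBS2 and 0 for FBN1. The POSTN stretch is chr13:37598845-37599018 on the minus strand, the TNC stretch chr9:115118208-115118407 on the minus strand, the THBS1 stretch chr15:39580829-39581078 on the plus strand and the TGFBI stretch chr5:136028738-136028987 on the plus strand. Capitals mark letters of the motifs searched on both strands. For SMAD proteins the letters searched were CAGAC, for TEAD factors they were CATTCC, and for AP-1 they were TGANTCA. RUNX factors were represented by TGTGGT, the zinc finger factor SP1 by GGGCGG, and the TATA box by TATAAA. The E-box CANNTG was searched as well but left in lower case, and before POSTN an E-box match shares bases with the AP-1 match.
POSTN: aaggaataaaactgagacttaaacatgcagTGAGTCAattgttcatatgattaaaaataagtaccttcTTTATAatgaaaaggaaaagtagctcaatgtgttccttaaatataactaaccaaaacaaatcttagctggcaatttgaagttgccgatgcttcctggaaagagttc
TGFBI: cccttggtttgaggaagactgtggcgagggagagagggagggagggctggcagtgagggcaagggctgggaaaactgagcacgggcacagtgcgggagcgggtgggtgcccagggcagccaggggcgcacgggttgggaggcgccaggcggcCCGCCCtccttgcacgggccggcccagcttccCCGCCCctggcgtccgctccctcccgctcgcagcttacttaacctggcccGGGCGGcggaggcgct
TNC: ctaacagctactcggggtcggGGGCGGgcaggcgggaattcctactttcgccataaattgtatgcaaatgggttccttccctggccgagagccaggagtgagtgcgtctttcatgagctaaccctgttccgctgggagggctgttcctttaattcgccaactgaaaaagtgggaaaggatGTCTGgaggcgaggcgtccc
THBS1: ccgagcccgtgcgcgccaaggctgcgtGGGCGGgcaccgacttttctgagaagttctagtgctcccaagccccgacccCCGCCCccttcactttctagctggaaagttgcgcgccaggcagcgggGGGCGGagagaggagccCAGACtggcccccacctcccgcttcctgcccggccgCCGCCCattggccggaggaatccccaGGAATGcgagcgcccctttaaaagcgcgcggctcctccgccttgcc

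The POSTN window held 1 CpG in its 250 bases, that of SPARC 7, and those of TNC and THBS2 12 each. The windows of TGFBI, THBS1, FBN1 and FN1 held 20, 24, 25 and 32. The median over all 35116 windows was 11. SP1 letters were found 6 times before FN1, some of them overlapping, 4 times before THBS1, 3 times before TGFBI and once before TNC, counted over the whole windows, and no SP1 match lay in the windows of POSTN, SPARC, THBS2 or FBN1. SP1 letters occur in 42.6% of all windows. CATTCC, the core of TEAD sites, matched in the windows of SPARC, THBS1, THBS2 and FBN1, 4 of 8 genes against 11.9% of all windows. The SPARC and THBS2 matches of CATTCC, and all SP1 matches before FN1, lay in bases that an exon covers. CAGAC matched in POSTN, TNC, THBS1 and THBS2, and occurs in 38.0% of windows. Most of the POSTN match, and the THBS2 match at 63 bases before the start, also lay in bases that an exon covers. The AP-1 letters matched before POSTN, as TGAGTCA, and before none of the other members, against 6.57% of windows. TATAAA matched before POSTN and THBS2 (10.7% of windows), TGTGGT before none of the 8 (11.0%) and CANNTG before 5 of 8 (61.8%). The TATAAA matches at 29 bases before the start of POSTN and of THBS2 lay in bases that an exon covers. The TTTATA printed for POSTN is a match on the other strand, 182 bases before the start. All CpG and motif counts here are over whole windows, with bases that an exon covers included. These matches are a description of letters, and binding of any factor was not measured.

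Removing the growth factors left 6 of the 8 genes called higher and 0 called lower. A gene was called at a limma adjusted p under 0.05, with Benjamini-Hochberg adjustment over the 16988 genes averaging 10 or more normalized counts, and a change of at least 2-fold. The same 6 genes were called when depleted replicate 1 was left out. Of all genes tested, 4.36% were called higher and 1.97% lower. Each of the 3 depleted samples exceeded each of the 3 controls for 7 of the 8 genes, an arrangement found for 13.5% of all genes tested, while the opposite arrangement was found for 0 of the 8 and for 12.1% of all genes. SPARC and THBS2, with control means of 5.85 and 1.25 normalized counts, reached the minimum mean only through the depleted samples, so the count over the members is not evidence by itself. Among the 6 genes with a control mean of at least 10, 4 were called. The median log2 fold change was 3.99 over the 8 members and -0.03 over all genes tested. In a bulk sample, more cells making an RNA and more RNA per cell cannot be told apart. The reads of the 8 genes together made up 0.321%, 0.218% and 0.257% of all reads on genes in the control replicates, and 0.984%, 2.34% and 2.04% in the depleted replicates.

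**Figure D1:**
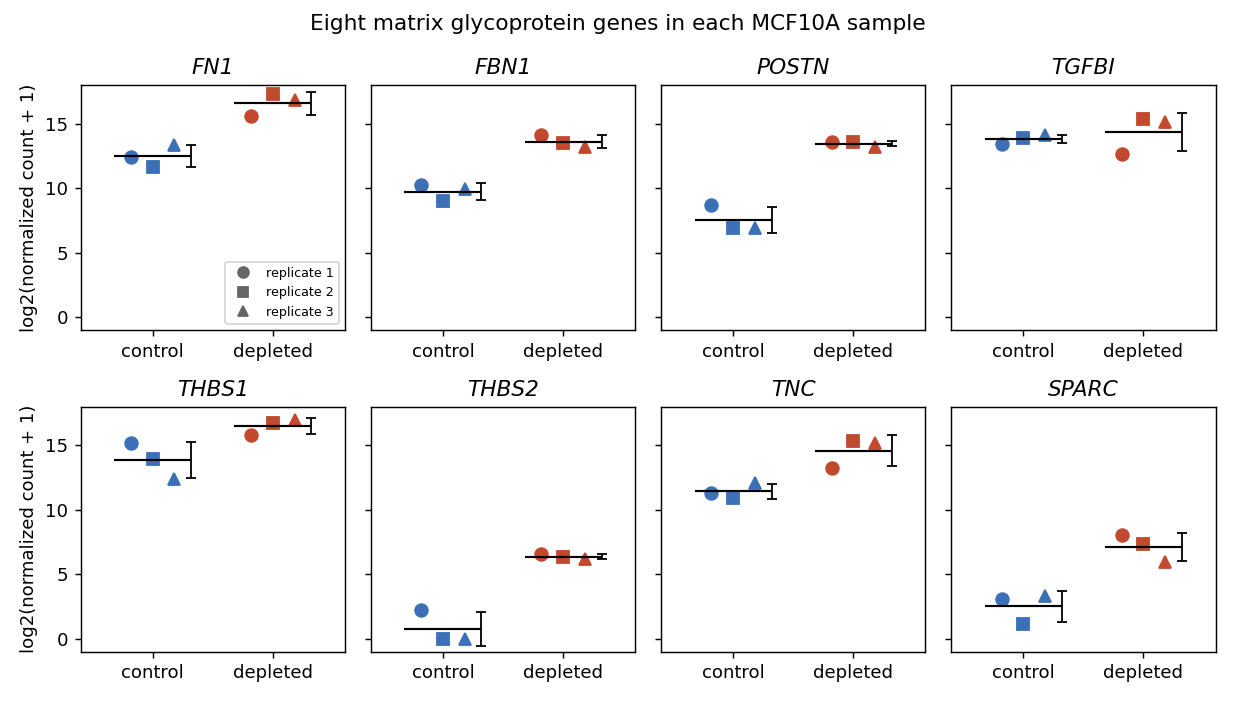
Level of each of the 8 matrix genes, as log2(normalized count + 1) on the vertical axis, in the 3 control (blue) and 3 depleted (red) MCF10A samples. Each point is 1 sample with its replicate number as the symbol, the line is the mean and the bar 1 SD. The depleted points lie above every control point in each panel except TGFBI, where depleted replicate 1 lies below the controls.

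FN1 (ENSG00000115414.17) encodes fibronectin, which cells bind through integrins and assemble into fibrils, and lies on chromosome 2 of hg38 from 215360440 to 215436073 on the minus strand. Its normalized counts were 5339, 3256 and 10459 in the control replicates and 48562, 159901 and 117025 in the depleted replicates. The lowest depleted sample was well above the highest control. The mean rose from 6351 ± 3707 to 108496 ± 56157 (SD, n = 3 each), with a log2 fold change of 4.10 (95% interval 2.70 to 5.49, limma adjusted p = 0.00652). FN1 alone took 0.311% to 0.999% of the reads on genes in the depleted samples, up from 0.0194% to 0.0693%. The call was kept with each sample left out, with log2 fold changes from 3.70 to 4.59, the latter without depleted replicate 1.

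FBN1 (ENSG00000166147.12), on chromosome 15 from 48408313 to 48645721 on the minus strand, encodes fibrillin-1, the main protein of the microfibrils that carry elastin and hold latent TGFβ. Its values were 1183, 508 and 998 normalized counts in the controls and 18229, 11313 and 9378 in the depleted samples. The groups were well apart, and depleted replicate 1 was here the highest of the depleted samples, where for FN1 it was the lowest. FBN1 rose by 3.88 on the log2 scale (limma adjusted p = 0.00163, standard error 0.41), by 3.61 without depleted replicate 1, and by 3.52 to 4.13 with each sample left out in turn. A lncRNA on the same strand, ENSG00000274654, overlaps FBN1 and reached at most 20.1 normalized counts.

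POSTN and TGFBI, the 2 fasciclin-domain genes, behaved differently. POSTN (ENSG00000133110.13, chromosome 13, 37562583 to 37598844, minus strand) encodes periostin, which binds collagen, tenascin-C and integrins. It had 409, 117 and 122 normalized counts in the controls and 11954, 12075 and 9413 in the depleted samples. The depleted values were the most even among the 8 genes, with a coefficient of variation of 13.5%. POSTN rose by 5.94 on the log2 scale (95% interval 4.85 to 7.03, limma adjusted p = 5.6e-04), the largest change of the 8 with a pseudocount of 1, and by 5.63 to 6.53 with each sample left out. With a pseudocount of 0.5, the log2 fold change of THBS2 was 6.34 and that of POSTN 5.94. The POSTN stretch printed above is AT-rich and holds an AP-1 match, and any relation of these letters to its level was not tested.

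TGFBI (ENSG00000120708.15, chromosome 5, 136028988 to 136063818, plus strand) encodes a matrix protein first found as a gene induced by TGFβ. It was already abundant with growth factors, at 11070, 14783 and 17349 normalized counts, and had 6514, 41246 and 35480 in the depleted samples. Depleted replicate 1 was below every control and depleted replicates 2 and 3 were above every control, so the groups overlapped. The estimated log2 difference of 0.58 did not pass (95% interval -0.99 to 2.16, limma adjusted p = 0.713). Without depleted replicate 1 it was 1.43 and still not called (limma adjusted p = 0.133), and without depleted replicate 2 it was 0.10. This arrangement of samples was found for 245 of the 16988 genes tested (1.44%), and the mirror image of it for 126 (0.742%). Of the related genes and cell type markers listed below, only ITGAV and CSF1R were among the 245, which was seen after their values were known. ITGAV encodes an integrin subunit that binds several of these proteins, and CSF1R was listed as a blood and immune marker. Any link of either gene to TGFBI was not tested.

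Within each sample, the ratio of POSTN to TGFBI counts needs no scaling between samples. It was 0.0369, 0.00789 and 0.00703 in the controls and 1.84, 0.293 and 0.265 in the depleted samples, so every depleted ratio exceeded every control ratio. On the log2(normalized count + 1) scale the ratio differed by 5.35 between the groups (exact permutation test, two-sided, p = 0.1, the smallest that 3 against 3 samples allow). Only in depleted replicate 1 did POSTN have more reads than TGFBI, and that was the sample low in TGFBI.

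THBS1 and THBS2 encode homologous thrombospondins, trimeric glycoproteins that restrain blood vessel growth, and thrombospondin-1 is also known to activate latent TGFβ. THBS1 (ENSG00000137801.10, chromosome 15, 39581079 to 39599466, plus strand) was high in every sample. It had 37802, 15927 and 5517 normalized counts in the controls and 58333, 107670 and 130566 in the depleted samples, so all depleted samples were above all controls while the controls themselves spread widely. Its log2 difference of 2.65 was not called (95% interval 0.97 to 4.33, limma adjusted p = 0.0741). Without control replicate 1, the highest control, the difference was 3.32 and was called (limma adjusted p = 0.0440), and without depleted replicate 1 it was 2.99 and was not (adjusted p = 0.0861). It was 1.93 without control replicate 3 (limma adjusted p = 0.0648), 2.55 without depleted replicate 2 (0.231) and 2.41 without depleted replicate 3 (0.242), and was called in none of these. DESeq2 on the recovered reads called THBS1 with all samples (adjusted p = 0.00272), while edgeR with TMM did not (adjusted p = 0.111). THBS1-IT1, a lncRNA on the same strand inside the gene, had 108, 22.3 and 40.3 normalized counts in the controls and 121, 404 and 369 in the depleted samples (log2 fold change 2.48, limma adjusted p = 0.0730). Reads from introns of THBS1 and from THBS1-IT1 cannot be told apart, and whether the counting used strand is not given in the sources used here for the antisense neighbours THBS1-AS1 and FSIP1, which were below 45 normalized counts in every sample.

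THBS2 (ENSG00000186340.13, chromosome 6, 169215780 to 169254050, minus strand) was at the limit of detection with growth factors. Its values were 3.76, 0 and 0 normalized counts in the controls and 94.3, 82.0 and 71.6 in the depleted samples, which rest on 3 reads in all controls and 260 in all depleted samples. The floor of 3 reads stood at 1.76 to 6.71 normalized counts across the 6 libraries. The ratio of the mean normalized counts was 65.9. Reads pooled over each group and divided by its summed size factors, which gives deeper libraries more weight, had a ratio of 99.6. The 95% counting interval of that pooled ratio, from 33.7 to 486, covers counting error only. The limma call held (log2 fold change 5.63, adjusted p = 0.00455), but the fitted size depends on the pseudocount and was 3.05 when 10 was added to each value in place of 1. Read from within each sample, the THBS2 to THBS1 ratio on the log2(normalized count + 1) scale was 2.98 higher in the depleted samples (exact permutation test, two-sided, p = 0.1, the smallest possible here) and 0.40 higher when 10 was added. THBS1 still exceeded THBS2 by far in every sample, at a THBS2 to THBS1 count ratio of 0.00162, 7.6e-04 and 5.5e-04 in the depleted samples.

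TNC (ENSG00000041982.13, chromosome 9, 115019575 to 115118207, minus strand) encodes tenascin-C, a hexameric glycoprotein that loosens cell attachment to fibronectin. It had 2577, 1947 and 4264 normalized counts in the controls and 9536, 41488 and 38161 in the depleted samples. Depleted replicate 1 was again the lowest of the depleted samples, and still above every control. TNC rose by 3.15 on the log2 scale (95% interval 1.79 to 4.52, limma adjusted p = 0.0187). Without depleted replicate 1 it was 3.84 (adjusted p = 0.00376), whereas the call was lost without control replicate 1, control replicate 2, depleted replicate 2 or depleted replicate 3, at limma adjusted p = 0.0738, 0.0694, 0.0787 and 0.0762, with log2 fold changes from 2.78 to 3.10.

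SPARC (ENSG00000113140.9, chromosome 5, 151661096 to 151686975, minus strand) encodes a collagen-binding glycoprotein, also called osteonectin, that takes part in collagen fibril assembly. It was close to the floor in the controls, at 7.52, 1.17 and 8.85 normalized counts, and had 265, 167 and 60.4 in the depleted samples. All depleted samples were above the controls, and depleted replicate 1 was the highest. SPARC rose by 4.62 on the log2 scale (95% interval 2.80 to 6.44, limma adjusted p = 0.0120) and by 4.16 without depleted replicate 1 (adjusted p = 0.0404). The call was lost without depleted replicate 2 (log2 fold change 4.49, limma adjusted p = 0.0671), and with each sample left out the estimates ran from 3.93 to 5.22. With a pseudocount of 10 it was still called, at a log2 fold change of 3.28.

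**Figure D2:**
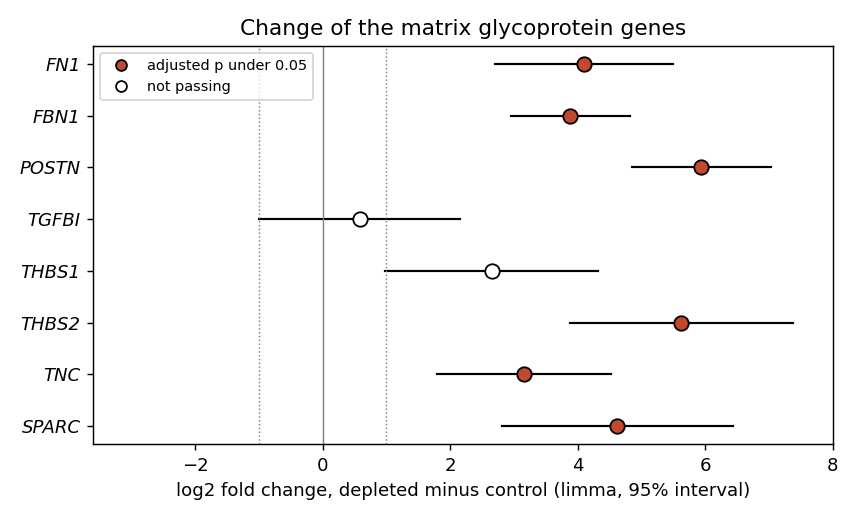
Log2 fold change (horizontal axis, depleted minus control, on log2(normalized count + 1)) of the 8 genes with 95% intervals from limma over 6 samples. Filled points passed an adjusted p under 0.05, open points did not, and the dotted lines mark 2-fold. POSTN is farthest to the right at 5.94, and the interval of TGFBI spans 0.

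Levels of different genes were compared per kilobase of exon, since the deposited values are not divided by length. In the controls THBS1 (2156 normalized counts per kb) and TGFBI (1866) led, followed by FN1 (369), TNC (305), FBN1 (48.4), POSTN (39.5), SPARC (1.26) and THBS2 (0.174). Between neighbours in that order the sample ranges were apart only for TGFBI over FN1, TNC over FBN1 and POSTN over SPARC, and THBS1 and TGFBI changed places when the longest transcript or the coding length was used. In the depleted samples the means ran THBS1 (10795), FN1 (6302), TGFBI (3596), TNC (3100), POSTN (2040), FBN1 (700.3), SPARC (35.3) and THBS2 (11.5). Here only POSTN over FBN1 and FBN1 over SPARC were apart in range, and the order of means was the same with the other 2 lengths. FN1 thus moved from the third to the second place and POSTN from the sixth to the fifth. SPARC, though called, stayed at a level per kilobase far below the other called genes except THBS2.

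**Figure D3:**
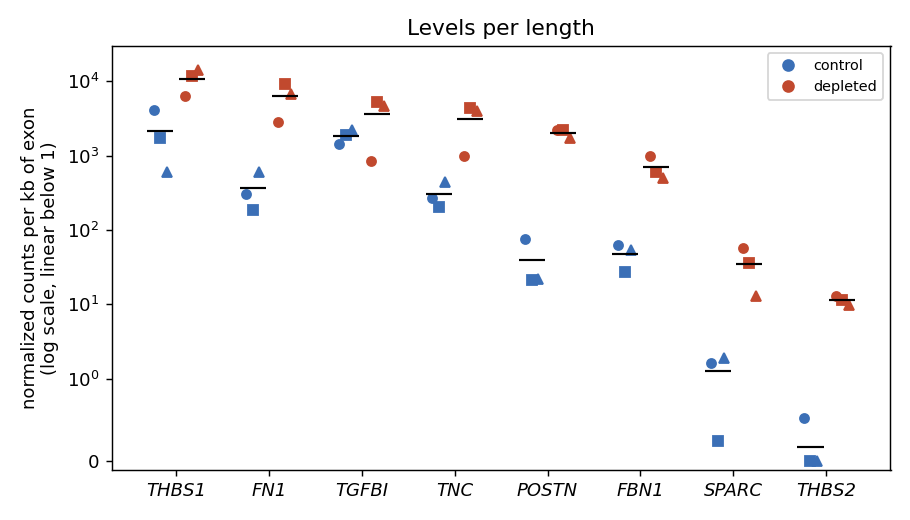
Normalized counts per kilobase of exon (vertical axis, log scale that is linear below 1) for the 8 genes in control (blue) and depleted (red) samples, with symbols for replicates 1 (circle), 2 (square) and 3 (triangle) and a line at each mean. Genes are in order of their depleted mean, from THBS1 at 10795 to THBS2 at 11.5.

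The 8 genes did not rank the depleted samples alike. Depleted replicate 1 was the lowest depleted sample for FN1, TNC, THBS1 and TGFBI, and the highest for SPARC, THBS2 and FBN1. Over all 16988 genes tested, it was the lowest for 35.5% and the highest for 39.0%. On the log2(normalized count + 1) scale, depleted replicate 1 minus the mean of the other depleted samples was -2.55 for TGFBI, -2.06 for TNC, -1.49 for FN1 and -1.02 for THBS1. The same difference was 0.17 for POSTN, 0.30 for THBS2, 0.82 for FBN1 and 1.39 for SPARC. FN1, TNC, THBS1 and TGFBI are the 4 members with the highest mean level per kilobase in both groups, and the library in which they were low is also the one low in CDH1 and KRT5. The part of that library in these differences was not tested. Over the 28 pairs of members, Pearson's correlation of log2 values across the 6 samples had a median of 0.86 and ran from 0.13 to 0.998, a description over points that share the group difference and the libraries.

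**Figure D4:**
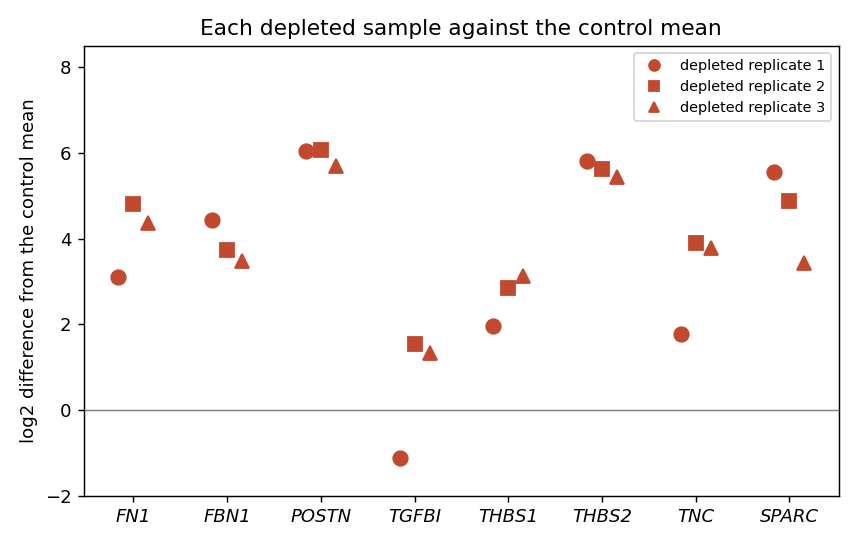
Log2 difference of each depleted sample from the control mean (vertical axis, on log2(normalized count + 1)), by gene, with the replicate as the symbol. Depleted replicate 1 (circle) lies lowest for FN1, TGFBI, THBS1 and TNC and highest for FBN1, THBS2 and SPARC, and it is below 0 only for TGFBI.

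The protein-coding genes whose log2 levels followed each member most closely over the 6 samples were picked from 10577 genes averaging 100 or more normalized counts. They were PTPN21, GJA1 and FILIP1L for FN1, HSD17B11, KCNMA1 and BMP4 for FBN1, and EDIL3, DCUN1D3 and WNT5B for POSTN. For THBS2 they were UGDH, DCUN1D3 and FAT3, for SPARC FRY, MTMR10 and TLE4, and for TNC SMAD7, DYRK2 and SH3BGRL2. For THBS1 they were B2M, SEC22B and MATN3, and for TGFBI IGSF3, FHDC1 and PLEKHH1. Pearson's r was between 0.986 and 0.998 for all 24 (n = 6 samples, which share the group difference and the library scaling). The lists depend on the scaling, since 16 of the 24 remained when samples were rescaled to the same total and 8 of the 24 with quantile normalization.

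Among 22 listed relatives of the members in the matricellular class, 13 were tested, 7 were called higher and 0 lower, beside 4.36% and 1.97% of all genes, with a median log2 fold change of 3.68. CCN3, CCN4 and EDIL3, with control means under 10, were tested only because of their depleted samples, and of the other 10 genes 5 were called higher. EDIL3, which encodes an integrin-binding protein with EGF and discoidin domains, rose from 9.06 ± 10.6 to 5351 ± 917 normalized counts (log2 fold change 9.56, limma adjusted p = 4.2e-04, or 8.25 with a pseudocount of 10). IGFBP7, a secreted IGF-binding relative, rose from 61.2 ± 49.4 to 3333 ± 1412 (log2 fold change 5.94, limma adjusted p = 0.00119). The other 5 called genes, named here after their values were seen, were CCN1, CCN2, CCN3, SPOCK1 and MFGE8, with log2 fold changes from 1.78 for MFGE8 to 5.32 for CCN3. All depleted samples were above all controls for 8 of the 13 and below them for 2, beside 13.5% and 12.1% of all genes. Those 2, also named afterwards and not called, were CCN5 (log2 difference -3.08) and SMOC1 (-1.70).

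A list of 26 genes, mainly for elastic microfibre and fibulin proteins, included NID2, which encodes the basement membrane protein nidogen-2. Of these 26 genes, 16 were tested, 7 called higher and 0 lower, with a median log2 fold change of 1.83. Beside these counts stand the same 4.36% and 1.97% of all genes. FBN2, MFAP2, MFAP5 and EMILIN1 had control means under 10 and were tested only because of their depleted samples, and of the other 12 genes 5 were called higher. MFAP5, a microfibril-associated glycoprotein, rose from 3.68 ± 2.31 to 562 ± 222 normalized counts (log2 fold change 6.98, limma adjusted p = 6.7e-04, or 5.33 with a pseudocount of 10), and EFEMP2, or fibulin-4, from 21.3 ± 15.8 to 234 ± 81.5 (log2 fold change 3.57, limma adjusted p = 0.00930). The other 5 called genes, named after their values were seen, were FBN2, LTBP2, FBLN1, FBLN5 and NID2, with log2 fold changes from 2.23 for FBLN5 to 4.06 for FBN2.

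Among 17 listed cell surface receptors of the 8 proteins, 14 were tested, 3 were called higher and 1 lower, against 4.36% and 1.97% of all genes, and the median log2 fold change was 0.63. ITGA4, the α4 integrin subunit that binds fibronectin, rose from 19.7 ± 17.9 to 215 ± 88.9 normalized counts (log2 fold change 3.65, limma adjusted p = 0.0149, or 3.01 with a pseudocount of 10). ITGB5, which pairs with αv, rose from 1611 ± 701 to 6758 ± 2646 (log2 fold change 2.10, adjusted p = 0.0238). ITGB8, another partner of αv, fell from 25030 ± 9390 to 5122 ± 2115 (log2 fold change -2.31, adjusted p = 0.0211). The third gene called higher, named after its values were seen, was ITGB3, the β3 subunit (log2 fold change 4.78, adjusted p = 0.0151), which was tested only because of its depleted samples, since its control mean was 1.92. With each of the 6 samples left out in turn, ITGA4 was called in 3 fits, lost without control replicate 1, depleted replicate 2 or depleted replicate 3, with limma adjusted p up to 0.0599. ITGB5 and ITGB8 were called in 2 fits each, lost without control replicate 1 or any 1 of the depleted samples, with limma adjusted p up to 0.0837 and 0.0876.

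Of 14 enzymes that process or crosslink the members, 10 were tested, 3 were called higher and 0 lower (4.36% and 1.97% of all genes), with a median log2 fold change of 1.23. MMP2, a gelatinase, rose from 102 ± 30.5 to 9681 ± 3909 normalized counts (log2 fold change 6.50, limma adjusted p = 3.2e-04). TGM2, the transglutaminase that crosslinks fibronectin, rose from 214 ± 137 to 8472 ± 2053 (log2 fold change 5.51, limma adjusted p = 9.0e-04). The other, named after its values were seen, was the secreted protease gene HTRA1 (log2 fold change 2.53, limma adjusted p = 0.0184). NID2, called higher, was counted in the microfibre list above and not among the basement membrane genes listed here. Of these 11 basement membrane genes, 0 were called higher and 1 lower, with a median log2 fold change of -0.43. The counts are near what 4.36% and 1.97% of all genes would give. Among those that did not pass, named after their values were seen, COL4A1 had a log2 difference of 3.03 and COL4A2 of 2.36, with depleted replicate 1 at or near the control range for both, and COL17A1 had one of -2.96. The gene called lower was LAMA3, which encodes the α3 chain of laminin-332 and fell from 11468 ± 1348 to 2727 ± 1359 (log2 fold change -2.23, limma adjusted p = 0.0247). LAMA3 was called in 3 of the 6 fits with a sample left out, and lost without control replicate 1, control replicate 2 or depleted replicate 3, with limma adjusted p up to 0.0898.

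**Figure D5:**
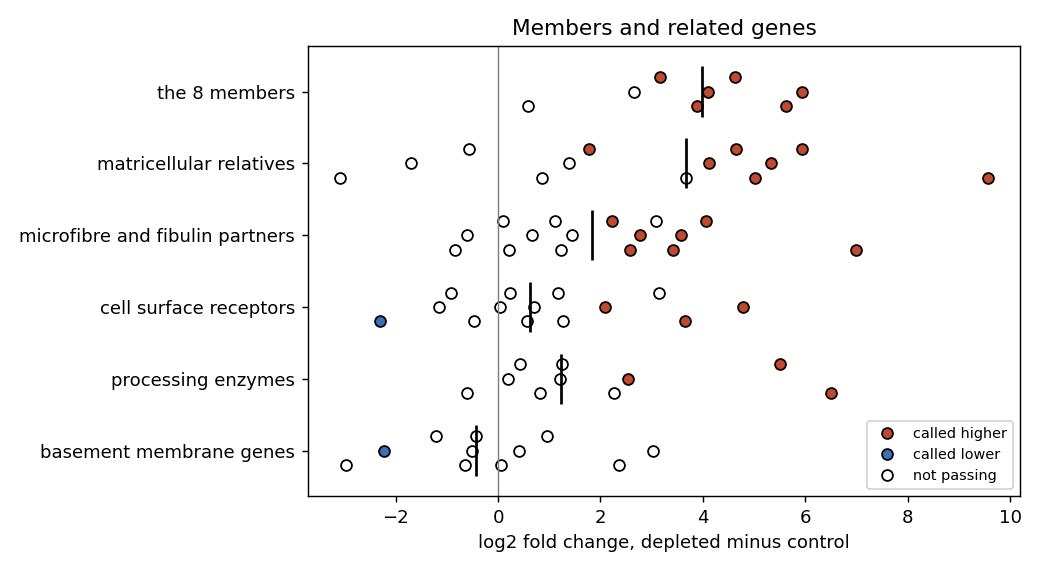
Log2 fold change (horizontal axis, depleted minus control) of each tested gene in the 8 members and in 5 lists of related genes, with red points called higher, blue called lower and open points not passing. The vertical bar is the median of each list, from 3.99 for the members to -0.43 for the basement membrane genes.

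Summed levels of fibroblast markers and of myoepithelial or smooth muscle markers were higher in the depleted samples. The summed level of 10 fibroblast markers was 920 to 1766 normalized counts in the controls and 16076 to 35446 in the depleted samples. Of the 10 listed, 6 were called higher, while THY1 stayed under 10 in every sample and was not tested. LUM, PDGFRA (at most 1.25 in the controls) and PDGFRB (3.76, 5.27 and 11.8 in the controls) were tested only because of their depleted samples. LUM had 0 to 3.76 normalized counts in the controls and 1981 to 5491 in the depleted samples, with depleted replicate 1 the highest. The fibroblast markers did not all share that order. Depleted replicate 1 was the lowest depleted sample for FAP (1939 against 7412 and 5919), COL6A3 (129 against 346 and 201) and THY1, and in between for COL1A1. The 6 markers of myoepithelium or smooth muscle present in the table, of 7 listed, summed to 343 to 461 and 19670 to 79358, and 4 were called higher. TAGLN alone, at 13598, 36923 and 68259 in the depleted replicates, was the larger part of each depleted sum. CNN1 and LMOD1, at most 1.25 in the controls, were tested only because of their depleted samples. Beside the counts of each marker list stand 4.36% of all genes tested called higher and 1.97% lower. The luminal sum was 22076 to 38715 and 19034 to 44831, over 9 genes with 0 called higher and 1 lower, and the basal sum was 56125 to 76599 and 43833 to 160558, over 7 genes with 0 called higher and 2 lower. KRT17 alone, at 61385 and 123480, was the larger part of the basal sums of depleted replicates 2 and 3. It was above every control in all depleted samples, TP63 and TRIM29 were below every control, and the other basal markers overlapped. The 4 endothelial markers summed to 167 to 1787 and 265 to 1610 (1 called higher), and the 3 blood and immune markers to 157 to 196 and 31.1 to 458 (0 called). CDH5, an endothelial marker, was under 10 in every control and was tested only because of its depleted samples. The part of these markers in the changes of the matrix genes was not tested.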

How the data were processed

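RNA-Seq was analysed in 6 MCF10A samples, 3 control and 3 depleted, as the sample labels assign them, although the series design text speaks of 2 replicates, which conflicts with every n = 3 given here. The authors depleted ribosomal RNA, prepared stranded libraries, sequenced 100-base single-end reads, aligned these to hg38 by TopHat2 and obtained counts from HTSeq with Gencode v22. What was deposited is a signal per gene, namely reads divided by a DESeq2 size factor (normalized counts here), and 100% of values were whole multiples of 1 read (tolerance 0.01 read). Per the submitters' processing notes, cutadapt 1.6, HTSeq 0.6, DESeq2 1.8.1 and R 3.2.0 were used. Gencode v44 on hg38 named 18913 of 19198 identifiers.

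limma 3.58.1 (lmFit, eBayes with trend, R 4.3.3) was run on log2(normalized count + 1) for the 16988 genes averaging at least 10, two-sided, with Benjamini-Hochberg adjustment, after a test on simulated data. Alternatives were other pseudocounts (0.5, 10), filters (none, 50), scalings, no trend, a replicate block, a length and GC correction, each sample left out, protein-coding genes, other thresholds, and edgeR 4.0.16 and DESeq2 1.42.0 on the recovered reads. Named genes were all members, the 2 called genes with the largest rise and fall of each list with a mean of at least 100, and the 3 nearest protein-coding genes of each member. Members, lists and motifs were chosen with earlier results of these data known. Promoter windows came from RefSeq (GRCh38.p14). Tables used pandas 2.3.3 and scipy 1.17.1 in Python 3.11.15, and figures matplotlib 3.10.9.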

Additional observations from a re-analysis of the deposited data

How the results depend on the processing

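With 3 samples a group and depths down to 7472418 reads, THBS2 and SPARC rest on few control reads. FN1, POSTN, THBS2 and FBN1 were called under each alternative that could test them (THBS2 was under a minimum mean of 50), TGFBI under none, and all 8 genes had a positive log2 fold change in each. The number of members called was 6, with 4 to 6 when each sample was left out, 5 at a minimum mean of 50, 7 with DESeq2 or at adjusted p under 0.1, and 4 at adjusted p under 0.01. Over the 5 lists of related genes together, 22 genes were called, with 12 at adjusted p under 0.01 and 13 to 25 when each sample was left out, where 14 and 13 came without depleted replicates 2 and 3. The THBS2 to THBS1 log2 ratio of 2.98 became 0.40 with a pseudocount of 10, and the other alternatives gave 2.54 to 3.69. Of all genes tested, 1076 were called, against 418 and 1706 at adjusted p under 0.01 and 0.1, 2112 with DESeq2, and 453 to 2474 when each sample was left out, with the highest without control replicate 3. The cause of these changes was not tested beyond the thresholds and samples named.

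The replicate numbers were not used to pair the samples in the main fit. The deviations of same-numbered samples from their group means had correlations of -0.0726, -0.283 and -0.323. These values cannot settle whether same-numbered samples shared a culture or preparation, since the 3 deviations within a group must sum to 0. With the replicate block, 6 members, 25 genes of the lists and 967 of all genes were called. The ratio differences of 2.98 and 5.35, like every log2 fold change, cannot move with this block. Each replicate number holds 1 control and 1 depleted sample, so only the error changes.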
